A study of Mus musculus with 24 samples.

Results

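The change in gene expression between postnatal days 20 and 26 was measured in the testes of *Atad2* knockout (KO) mice. ATAD2 is a protein with an ATPase domain and a bromodomain, a fold that binds acetylated histones, and it is made in male germ cells. The comparison used 6 of the 24 libraries of the series, chosen by genotype and age alone, with 4 KO libraries at d20 and 2 at d26. The other 18 libraries were 6 KO libraries of d22 and d24 and 12 wild-type (WT) libraries of the same ages. They entered the fit that estimated the spread, and their values are given beside the KO values where they bear on them.

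The KO mice were homozygous for an allele in which a *lacZ* cassette is joined to the upstream exons of *Atad2*. Cre recombinase under the CMV promoter, which is active in all tissues, removed the selection cassette and the exon that follows, and the allele makes a fusion protein without function. All cells of the testis therefore carried it, somatic cells included. RNA came from whole testis according to the sample labels and the methods, while a protocol in the labels also describes the purification of germ cell fractions. Ribosomal RNA was depleted, and the libraries were strand-specific read pairs.

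In the mouse the germ cells that enter meiosis earliest after birth advance nearly together, so that the age of a young testis sets the most advanced cell type it holds. Spermatocytes copy their DNA, pair and recombine their chromosomes in a long pachytene stage, and then divide to give haploid round spermatids. Spermatids build an acrosome and a flagellum, and as they elongate they replace most histones with transition proteins and then with protamines. Transcripts of these products are made in round spermatids well before the proteins are used, and the youngest testes hold few such cells.

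*Atad2* itself was at 30.8, 37.1, 36 and 32.2 CPM (counts set to the same effective library size for all libraries) in the KO libraries of d20 and at 52.5 and 53.0 in those of d26. All 6 lay below the WT libraries, which held 76.4 to 171 CPM at d20 and 113 and 138 CPM at d26. The residual KO transcript rose by 0.63 on the log2 scale (SE 0.216; edgeR adjusted p = 0.0188). The counts include exons outside the deleted part, so that this level does not check the knockout.

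The 6 libraries held 13587941 to 19288285 assigned counts. At that depth 3 counts correspond to 0.156 to 0.221 CPM. Read pairs assigned to genes were 35.6% to 40.9% of the pairs tallied at d20 and 44.5% and 46.3% at d26, since fewer pairs of d26 fell outside the exons of genes, and the part of this shift in the results was not tested. Among the WT libraries replicate 2 of d20 stood apart. It had 3.26% of its counts in the ribosomal RNAs of mitochondria, against 0.17% to 1.06% in all the others, and its chi-square per degree of freedom against the other d20 replicates was 94.2 to 129, where pairs of those had 14.0 to 28.5. It enters the KO comparison through the filter, the scaling and the estimate of the spread, and without it 10147 genes changed in place of the 8955 given next. The labels do not say that each library came from a separate animal, while the study's methods call the samples biological replicates. The p-values measure the spread between these libraries.

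Between d20 and d26 most genes tested changed in the KO testis, and the genes that rose did so by more than the others fell. Of 17170 genes, 8955 changed (52.2%), of which 4672 rose (27.2%) and 4283 fell (24.9%). The median rise was 2.33-fold and the median fall 1.69-fold, and beyond 2-fold 2813 genes rose (16.4%) and 983 fell (5.73%). Rises beyond 16-fold were found for 496 genes, against 1 fall of that size. Transcripts of the genes that rose beyond 4-fold made up 0.296% to 0.935% of the assigned counts at d20, and 5.07% and 5.34% at d26. The 2 libraries of d26 lay on the same side of all 4 libraries of d20 for 70.0% of all genes tested and for 99.4% of the genes that changed.

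The split into rises and falls rests on the scaling. Scaling by library totals gave 3683 rises and 6036 falls, with a median over all genes of -0.26 on the log2 scale in place of -0.07. With only 2 libraries at d26, leaving out replicate 1 left 6709 changed genes, of which 2853 fell, and leaving out replicate 2 left 5829, of which 2268 fell. Of the genes described here, *Atad2*, *Cyp11a1*, *Cyp17a1*, *H3f3b*, *Hist1h3a*, *Hist1h3c*, *Hist1h3h*, *Hormad1*, *Kcnk3*, *Pgam1*, *Pgk1*, *Slc25a31*, *Slc4a1*, *Slc9c1*, *Taf7l*, *Tex11*, *Uhrf1*, *Usp9x* and *Usp9y* lost their call without 1 of these libraries, and *Sycp3* lost it in a fit of the 6 libraries alone. Counts of falls within several gene lists moved with the scaling and with the d26 libraries too.

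Transcripts for packaging DNA in the spermatid rose steeply. Of 20 tested genes of the histone-to-protamine transition, 16 rose (80.0%, beside 27.2% of all genes tested) and none fell, with a median log2 fold change of 4.49 beside -0.07 over all genes tested. A fit of the 6 libraries alone gave 15 rises and 2 falls. *Prm1*, which encodes protamine 1, the main DNA-packing protein of sperm, was at 2.90, 0, 1.39 and 7.04 CPM at d20 and at 739 and 787 CPM at d26. Its groups lay far apart, and the d20 libraries differed among themselves, with no count in replicate 2 and the highest level in replicate 4. It rose by 8.08 on the log2 scale (SE 1.20, adjusted p = 4.12e-05). *Tnp2*, for transition protein 2, likewise had no count in replicate 2 and its highest d20 level in replicate 4, with 0.943, 0, 0.991 and 5.35 CPM at d20 and 546 and 530 CPM at d26. The rise was 8.20 (SE 1.12, adjusted p = 1.79e-05). *Prm2* and *Tnp1*, for the other protamine and transition protein, rose by 8.26 and 8.19 on the log2 scale.

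The linker histones of spermatids rose as well. *H1fnt* was at 0.29 to 2.78 CPM at d20 and at 103 and 97.1 CPM at d26, a log2 fold change of 6.50. *Hils1* rose by 4.99. *H2afb1*, a histone H2A variant of late spermatids, rose from at most 0.813 CPM to 31.5 and 37.7 CPM, and as an X-linked gene with close copies it is uncertain. *Chd5*, a chromatin remodeler needed for histone removal, was present before the transition proteins, with 7.78 to 39.7 CPM at d20 and 262 and 260 CPM at d26, a log2 fold change of 3.59. Testis histones made in spermatocytes did not follow. The histone H2B variant gene *Hist1h2ba*, the most abundant of the list, was at 1060 to 1730 CPM at d20 and at 840 and 929 CPM at d26, with no call (log2 fold change -0.65, adjusted p = 0.254), and it was called as a fall in the fit of the 6 libraries alone (adjusted p = 0.0254). Nor was the linker histone gene *Hist1h1t* called (-0.46, adjusted p = 0.458).

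The 250 bases upstream of the RefSeq start (build GRCm38.p6) are shown for 6 genes picked as examples from those that rose beyond 16-fold. Some of them hold the element bound by CREM, an activator of spermatid genes, and others do not. *Akap4* and *Gapdhs* rose by 4.99 and 4.92 on the log2 scale and were not among the 138 genes that rose beyond 64-fold. The share with the element among these 6 genes stands for no larger set. The windows lie at chr16:10796824-10797073 (*Prm1*, minus strand), chr16:10792106-10792355 (*Prm2*, minus strand), chr1:73015900-73016149 (*Tnp1*, minus strand), chr16:10788656-10788905 (*Tnp2*, minus strand), chrX:7067265-7067514 (*Akap4*, plus strand) and chr7:30743682-30743931 (*Gapdhs*, minus strand). Capitals mark matches, on either strand, to the letters TGANGTCA, the cyclic AMP response element with any base at its 4th position. The last base stands just before the start.
Prm1: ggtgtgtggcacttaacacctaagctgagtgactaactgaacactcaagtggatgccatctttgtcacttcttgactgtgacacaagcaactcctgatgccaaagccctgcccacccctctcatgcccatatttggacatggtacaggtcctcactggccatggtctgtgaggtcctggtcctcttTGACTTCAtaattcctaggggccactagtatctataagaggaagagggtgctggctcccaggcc
Tnp1: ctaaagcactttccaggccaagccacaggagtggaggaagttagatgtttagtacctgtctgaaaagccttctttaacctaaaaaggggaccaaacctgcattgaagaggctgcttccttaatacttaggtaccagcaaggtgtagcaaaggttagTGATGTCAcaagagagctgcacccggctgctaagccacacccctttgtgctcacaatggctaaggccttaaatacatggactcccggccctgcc
Akap4: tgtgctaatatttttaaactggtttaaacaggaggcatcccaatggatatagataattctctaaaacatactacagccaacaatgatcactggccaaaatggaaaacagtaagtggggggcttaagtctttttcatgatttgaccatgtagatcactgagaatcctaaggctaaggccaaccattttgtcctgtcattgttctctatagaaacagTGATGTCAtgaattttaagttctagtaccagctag
Gapdhs: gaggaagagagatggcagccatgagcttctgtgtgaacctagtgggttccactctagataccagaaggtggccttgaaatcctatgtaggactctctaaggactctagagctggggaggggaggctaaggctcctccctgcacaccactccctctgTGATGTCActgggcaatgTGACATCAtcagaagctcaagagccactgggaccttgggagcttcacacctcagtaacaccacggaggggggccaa
Prm2: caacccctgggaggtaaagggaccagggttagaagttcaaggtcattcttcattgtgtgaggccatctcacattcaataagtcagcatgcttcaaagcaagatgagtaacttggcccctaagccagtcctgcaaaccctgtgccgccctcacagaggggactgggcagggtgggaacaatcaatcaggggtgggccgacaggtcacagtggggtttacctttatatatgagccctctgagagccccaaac
Tnp2: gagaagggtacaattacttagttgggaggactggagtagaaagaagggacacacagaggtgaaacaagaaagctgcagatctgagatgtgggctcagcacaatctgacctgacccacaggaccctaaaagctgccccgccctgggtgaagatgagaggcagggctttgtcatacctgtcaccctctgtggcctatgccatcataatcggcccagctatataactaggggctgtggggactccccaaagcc

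The match begins 64 bases before the start in *Prm1*, 94 in *Tnp1* and 35 in *Akap4*, and *Gapdhs* has matches at 94 and at 76 bases. No match lies in the windows of *Prm2* and *Tnp2*, whose transcripts rose as far as those of *Prm1* and *Tnp1*. Over the protein-coding genes tested, the element became more frequent with the size of the rise. It was found in 29.6% of 287 promoters of genes that rose beyond 16-fold, in 20.3% of 837 beyond 4-fold, in 8.89% of 979 between 2-fold and 4-fold and in 6.17% of 1443 up to 2-fold. Genes that were not called had it in 6.04% of 6008 promoters, genes that fell in 4.84% of 3306, and all promoters of that length in 7.59%.

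The form with T at the 4th base, TGATGTCA, accounted for most of this, with 17.4% beyond 16-fold beside 1.30% of genes not called and 3.02% of all promoters. The palindromic form TGACGTCA was no more frequent beyond 16-fold (2.09%) than among genes not called (2.7%). Where the element was present it lay near the start, within 100 bases for 86.7% of the sites of genes that rose beyond 16-fold and for 59.4% of those of genes not called. GTTGCC, the half-site of the X-box that RFX factors bind, showed another pattern, with 13.9% beyond 16-fold, 16.9% between 2-fold and 4-fold, 10.2% among genes not called and 10.5% of all promoters. Base composition moved with the size of the rise too. Promoters beyond 16-fold had a median GC content of 50.8% and 2 CpG sites, and those of genes not called 58.8% and 14, and the part of this difference in the motif shares was not tested. The motifs were chosen with the values of these genes known, and a match is not evidence of binding.

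**Figure D1:**
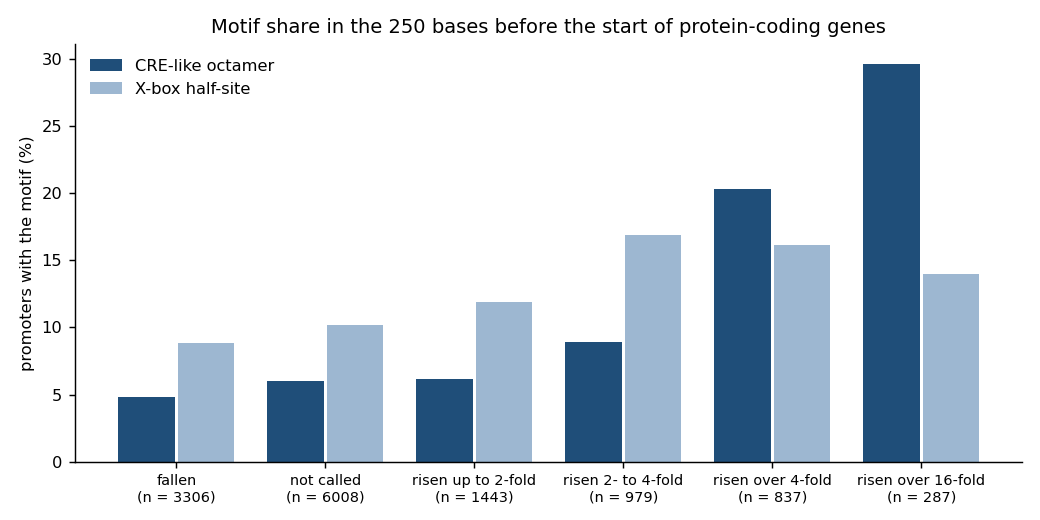
Share of promoters (%, vertical axis) that hold the CRE-like octamer TGANGTCA (dark bars) or the X-box half-site GTTGCC (light bars) on either strand, by change between d20 and d26 in KO testis (horizontal axis, with the number of promoters matched). The bars beyond 4-fold include the genes beyond 16-fold. The octamer goes from 6.04% in genes not called to 29.6% beyond 16-fold, while the half-site is most frequent, at 16.9%, between 2-fold and 4-fold.

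Transcripts of the acrosome, the enzyme-filled cap over the sperm nucleus, rose nearly throughout. Of 26 tested genes for the acrosome and for fusion with the egg, 25 rose (96.2%, beside 27.2% of all genes tested) and none fell, with a median log2 fold change of 2.86. *Acrv1*, for a protein of the acrosomal matrix, was at 6.09, 2.48, 17.0 and 30.4 CPM at d20 and at 157 and 188 CPM at d26. The groups did not overlap, and replicates 3 and 4 were the highest of d20. The gene rose by 3.62 (SE 0.614, adjusted p = 0.000107). *Izumo1*, for the sperm protein that the egg receptor recognizes, rose from 0.85 to 6.10 CPM at d20 to 35.6 and 42.2 CPM at d26 (log2 fold change 3.72). *Tmem190* had the largest rise of the list, at 4.04. Other members were abundant at d20 already. *Acr*, for the protease acrosin, rose by 1.84, and *Crisp2*, the most abundant, was at 757 to 1160 CPM at d20 and at 1820 and 1880 CPM at d26 (0.99). *Gopc*, a Golgi gene needed for acrosome formation that is used in many tissues, was the member not called (0.05, adjusted p = 0.762).

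All 11 genes for actin-like proteins and the calyx, the collar below the acrosome, rose (100%, beside 27.2% of all genes tested), with a median of 4.0. *Actrt3* rose by 7.58, from at most 0.339 CPM to 26.0 and 22.5 CPM, and *Actl7b*, the most abundant, by 2.67. All 6 testis-specific serine kinases rose too (beside the same 27.2%), with a median of 4.07. *Tssk2* was at 1.11 to 14.3 CPM at d20 and at 157 and 172 CPM at d26 (4.73), and *Tssk6*, which is needed for chromatin condensation, rose by 6.02.

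The parts of the flagellum fell into a steep and a shallow group. The outer dense fibres, the fibrous sheath and the mitochondrial sheath surround the microtubules of the tail and are particular to sperm. All 18 of their tested genes rose (100%, beside 27.2% of all genes tested), with a median log2 fold change of 4.16. *Akap4*, the main structural protein of the fibrous sheath, was at 7.04, 2.42, 20.4 and 40.2 CPM at d20 and at 545 and 568 CPM at d26. All d20 libraries lay far below those of d26, and the gene rose by 4.99 (SE 0.736, adjusted p = 2.98e-05). *Smcp*, of the mitochondrial sheath, and *Odf1*, of the dense fibres, rose by 5.05 and 4.47. *Odf2*, the most abundant, was already at 374 to 491 CPM at d20 and rose to 1590 and 1560 CPM, a change of 1.85.

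The axoneme, the microtubule core that sperm share with other motile cilia, was already well represented at d20. Of 28 tested genes 27 rose (96.4%, beside 27.2% of all genes tested) and none fell, with a median of 1.10. *Dnah8*, a dynein heavy chain, was at 1950, 2360, 2570 and 2540 CPM at d20 and at 4270 and 4240 CPM at d26 (log2 fold change 0.85, SE 0.24, adjusted p = 0.00567). *Tekt2*, for a tektin filament, had the largest rise, at 2.29, and *Rsph4a*, for a radial spoke head protein, was under 1 CPM in all 6 libraries and was not called. The summed level of the list was 7035 to 7440 CPM at d20 and 14237 and 14299 CPM at d26.

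Of 14 genes for the CatSper calcium channel and sperm transporters 12 rose (85.7%, beside 27.2% of all genes tested), with a median of 2.23. *Catsper1*, for a pore subunit, rose by 3.77, *Atp1a4*, the sodium pump of sperm, by 5.12, and *Slc9c1*, a sperm sodium-proton exchanger, by 0.73. Of 12 genes for the manchette, the microtubule skirt that shapes the nucleus, and for the joint of head and tail, 11 rose (91.7%, beside the same 27.2%, median 1.65). *Spag4*, of the nuclear envelope at the tail base, rose from 2.29 to 8.87 CPM at d20 to 77.3 and 70.0 CPM at d26 (3.78). *Kif3a*, a kinesin used by most cilia, was not called (0.18, adjusted p = 0.244).

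**Figure D2:**
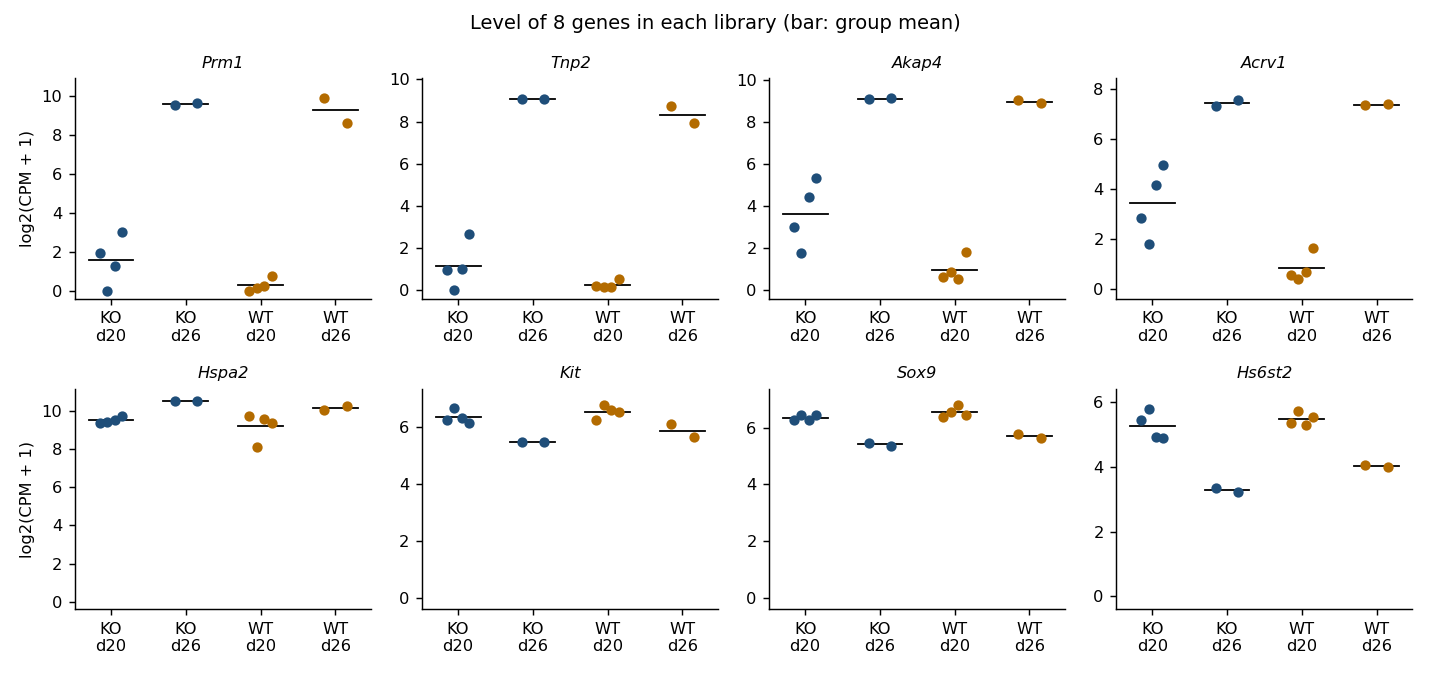
Level of 8 genes, log2(CPM + 1) on the vertical axis, in each KO (blue) and WT (orange) library of d20 and d26, with a bar at the group mean. *Prm1*, *Tnp2*, *Akap4*, *Acrv1* and *Hspa2* were higher at d26 in every KO library, and *Kit*, *Sox9* and *Hs6st2* were lower. The 4 KO libraries of d20 spread from 2.42 to 40.2 CPM for *Akap4*.

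The regulators of spermatid genes mostly rose. Of 15 tested, 12 rose (80.0%, beside 27.2% of all genes) and 1 fell, with a median of 1.04, and without replicate 2 of d26 10 rose and none fell. *Crem* was at 159, 136, 124 and 123 CPM at d20 and at 233 and 241 CPM at d26 (log2 fold change 0.81, SE 0.178, adjusted p = 0.000898). *Fhl5*, a coactivator of CREM, rose by 4.92, from 0.915 to 5.55 CPM at d20 to 90.7 and 81.6 CPM. *Rfx2*, an activator of cilium and spermatid genes, rose by 1.42 and *Sox30*, needed to begin the haploid program, by 1.77. *Taf7l*, a germ cell subunit of the general transcription factor TFIID on the X chromosome, fell by 0.65.

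Many spermatid transcripts are stored before they are translated. Of 14 genes for mRNA storage and translation control 7 rose (50%, beside 27.2% of all genes tested) and 3 fell (21.4%, beside 24.9%), and library totals gave 6 rises and 5 falls. *Ybx3*, for a protein that masks stored transcripts, was at 348 to 433 CPM at d20 and at 1090 and 1050 CPM at d26 (log2 fold change 1.49), and *Pabpc1*, for a poly(A)-binding protein, rose by 0.93. *Dazl*, an RNA-binding protein of spermatogonia and early spermatocytes, went the other way, from 980, 1110, 639 and 601 CPM to 352 and 366 CPM (-1.21, SE 0.293, adjusted p = 0.00187). In the piRNA pathway, which silences transposons and cleaves transcripts through small RNAs, 6 of 21 genes rose (28.6%, beside 27.2% of all genes tested) and 1 fell. Library totals gave 5 rises and 6 falls, and the median of -0.01 turned to 0.08 under median-of-ratios scaling and to -0.20 under library totals. *Tdrd6*, a scaffold of the spermatid RNA granule, rose by 1.31, and *Piwil1*, the main PIWI protein of pachytene spermatocytes, was not called (0.42, adjusted p = 0.168).

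Sperm energy metabolism relies on enzymes with germ cell isoforms, several of which stand in for X-linked genes that are silent in spermatocytes. Of 17 such isoforms 12 rose and 1 fell (median log2 fold change 0.89, with 11 rises and no fall without either d26 library), while of 17 somatic counterparts 2 rose and 11 fell (median -0.65), of which 5 falls were left without replicate 2 of d26. Of all genes tested 27.2% rose and 24.9% fell, beside 70.6% rises of the isoforms and 64.7% falls of the counterparts. *Gapdhs*, the glycolytic dehydrogenase bound to the fibrous sheath, was at 2.83, 1.37, 10.6 and 20.1 CPM at d20 and at 258 and 270 CPM at d26 (4.92), and its somatic counterpart *Gapdh* was at 188 to 256 CPM and then at 129 CPM in both libraries (fell by 0.75). Per kilobase of exon the ratio of *Gapdhs* to *Gapdh* went from 0.111 ± 0.119 (SD, n = 4) to 5.25 ± 0.162 (SD, n = 2), so that the order of the pair turned over.

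In other pairs the germ cell isoform was ahead at d20 already by this ratio. The ratio divides by all annotated exons of a gene together, such as 1580 bases for *Ldhc* and 3310 for *Ldha*. The part of these lengths, and of dropped pairs with several alignments, in the ratios was not tested. The ratio per kilobase of *Pgk2* to the X-linked *Pgk1*, both phosphoglycerate kinases, was 16.4 ± 2.99 at d20 (SD, n = 4) and 73.4 ± 3.56 at d26 (SD, n = 2). That of *Pgam2* to *Pgam1*, phosphoglycerate mutases, went from 14.8 ± 1.5 to 87.7 ± 31.2. For the lactate dehydrogenases *Ldhc* and *Ldha* it was 6.26 ± 0.473 and 6.28 ± 0.0919, because both genes rose, by 0.90 each. *Slc25a31*, the germ cell carrier of ADP and ATP, fell by 0.68, and *Slc16a7*, a monocarboxylate transporter, rose by 2.73.

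Many genes of the meiotic divisions rose. Of 20 tested genes for entry into and passage through the divisions, 13 rose (65.0%, beside 27.2% of all genes tested) and none fell, with a median log2 fold change of 0.69. Library totals gave 8 rises and 1 fall, and leaving out replicate 2 of d26 gave 8 rises. *Hspa2*, the heat shock protein that spermatocytes need to leave prophase, was at 672, 687, 744 and 838 CPM at d20 and at 1470 and 1460 CPM at d26 (0.99, SE 0.261, adjusted p = 0.00349). The groups did not overlap, and the spread at d26 was small. *Ccna1*, the meiotic cyclin A, rose by 1.63, and *Plk1*, a kinase of the division spindle, by 1.47. *Cdk1* was not called (-0.40, adjusted p = 0.212).

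Of 30 genes of the chromosome axis and of recombination 10 fell (33.3%, beside 24.9% of all genes tested) and 5 rose, with a median of -0.40. The number of falls was 19 under library totals, 17 with a replicate block, and 5 and 4 without replicates 1 and 2 of d26. *Hormad1*, an axis protein that marks unpaired chromosomes, was at 464, 563, 359 and 336 CPM at d20 and at 236 and 225 CPM at d26 (-0.90), and the d20 libraries with the most spermatid transcript, replicates 3 and 4, held the least. *Mei4*, a partner of the break-forming enzyme, fell by 1.61 and *Sycp3*, of the axis, by 0.67, and the crossover gene *Tex11* fell by 1.25. *Rec8*, a meiotic cohesin, rose from 8.37 to 18.8 CPM to 46.3 and 51.7 CPM (1.91), and *Spo11*, the enzyme that makes the breaks, rose by 0.60.

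Of 18 spermatogonial genes tested 10 fell (55.6%, beside 24.9% of all genes) and 1 rose, with a median of -0.64, and 6 fell without replicate 2 of d26. *Kit*, the receptor of differentiating spermatogonia, was at 74.9, 101, 79.2 and 69.3 CPM at d20 and at 43.0 and 43.4 CPM at d26 (log2 fold change -0.91, SE 0.189, adjusted p = 0.000514). *Ret*, the receptor by which stem cells sense GDNF, fell by 1.33 and *Lin28a* by 1.02. *Dmrtb1*, a regulator of the switch from mitosis to meiosis and by far the most abundant of the list, rose from 168 to 198 CPM at d20 to 538 and 632 CPM (1.72), so that the summed level of the list rose, from 873.8 to 1005 CPM to 1075 and 1143 CPM, while most of its members fell.

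Of 24 genes for DNA replication 10 fell (41.7%, beside 24.9% of all genes tested) and 1 rose, with a median of -0.16, and 5 fell without replicate 2 of d26. *Mcm2*, of the replicative helicase, was at 35 to 44.6 CPM at d20 and at 23.1 and 23.0 CPM at d26 (-0.77), and *Tyms*, for thymidylate synthase, fell by 1.14. *Uhrf1*, which keeps DNA methylation through replication, rose by 0.59. Of 57 replication-dependent histone genes, grouped after their values were seen and sharing reads among near-identical copies, 22 fell (38.6%, beside 24.9% of all genes tested) and 2 rose (median -1.07). The number of falls was 6 without either d26 library, 48 without replicate 2 of WT d20, 44 under library totals and 46 in a fit of the 6 libraries alone. *Hist1h3a*, *Hist1h3c* and *Hist1h3h*, which encode histone H3, had log2 fold changes of -1.57, -1.66 and -1.7.

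Among abundant genes, the 10 largest rises were *Hemgn*, *Trp53tg5*, *Fscn3*, *Prss37*, *Prm2*, *Fam71a*, *Tnp2*, *Tnp1*, *Trim42* and *Prm1*, with log2 fold changes from 9.39 to 8.08. They were taken from genes with at least 20 CPM in the higher group whose libraries did not overlap, without symbols of the form Gm or Rik. *Hemgn*, at chr4:46393989-46413506 (mm10), encodes a nuclear protein known from blood cell precursors and from testis. It had 5 counts in all over the 4 libraries of d20, at 0.0725, 0.0654, 0.066 and 0.135 CPM, and stood at 58.3 and 66.5 CPM at d26 (9.39, SE 1.06, adjusted p = 2.51e-06). *Fscn3*, a testis relative of the actin-bundling protein fascin, rose by 8.49, and *Prss37*, a serine protease relative needed for sperm to reach the egg, by 8.38. Of all genes that rose, 43 had no count in any d20 library.

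Within the same limits the 10 largest falls were *Ppp2r2c*, *Hs6st2*, *Scara3*, *Hist1h3h*, *Kcnk3*, *Thbd*, *Hist1h3c*, *Adamts9*, *Lppr4* and *Hist1h3a*, from -2.85 to -1.57. *Ppp2r2c*, at chr5:36868513-36955078 and encoding a regulatory subunit of protein phosphatase 2A, was at 22.6, 26.2, 17.2 and 17.5 CPM at d20 and at 3.37 and 2.41 CPM at d26 (SE 0.357, adjusted p = 3.5e-06). *Hs6st2*, an X-linked enzyme that adds sulfate to heparan sulfate, went from 42.3, 53.8, 29.7 and 28.6 CPM to 9.09 and 8.32 CPM (-2.15, SE 0.251, adjusted p = 1.76e-06). In both genes replicates 3 and 4 of d20 lay nearer to d26 than replicates 1 and 2. *Thbd*, the thrombin receptor thrombomodulin, fell by 1.68, and *Adamts9*, a secreted protease of the extracellular matrix, by 1.59.

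Sertoli and peritubular genes of the testis soma mostly fell. In whole tissue fewer cells of a type and less RNA per cell cannot be told apart. Of 23 Sertoli cell genes 16 fell (69.6%, beside 24.9% of all genes tested) and none rose, with a median of -0.64, and their summed level went from 3159 to 3399 CPM at d20 to 2396 and 2441 CPM at d26. *Sox9*, the transcription factor that specifies Sertoli cells, was at 76.2, 86.6, 75.1 and 85.9 CPM at d20 and at 42.7 and 40.2 CPM at d26 (-0.97, SE 0.169, adjusted p = 9.79e-05). *Fshr*, the receptor for follicle-stimulating hormone, and *Gdnf*, the growth factor for stem cells, fell by 1.13 and 1.41. *Clu*, the most abundant, was at 1010 to 1150 CPM at d20 and at 922 and 942 CPM at d26 and was not called (-0.20, adjusted p = 0.374).

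Of 9 genes of peritubular muscle cells 7 fell (77.8%, beside the same 24.9%) and 1 rose (median -0.93), and 4 fell without replicate 2 of d26. *Acta2*, for smooth muscle actin, went from 294 to 402 CPM to 171 and 158 CPM (-1.13), and *Ptch1*, the Hedgehog receptor, fell by 1.5. *Actg2*, the other smooth muscle actin, rose from 7.47 to 14.2 CPM to 66.9 and 70.0 CPM (2.7). Of 8 endothelial genes 4 fell, where 24.9% of all genes did, and none rose, with *Cdh5*, a cadherin of vessel walls, at -1.16. This count was unstable, with 7 falls under library totals, 1 rise and 1 fall in DESeq2, and 1 fall each without replicates 2, 3 and 4 of d20 and replicate 2 of d26. Of 12 genes for macrophages 0 were called by edgeR and 0 by DESeq2, with 1 at an unadjusted p under 0.05.

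Few Leydig cell genes were called. Of 16 tested 3 rose (18.8%, beside 27.2% of all genes tested) and none fell, with a median of 0.28. Leaving out either d26 library left 1 rise, library totals gave 2 rises and 1 fall, and their summed level was 722.6 to 1425 CPM at d20 and 1603 and 1688 CPM at d26. *Cyp17a1*, an enzyme of androgen synthesis, was at 56.4, 31.3, 177 and 215 CPM at d20 and at 397 and 377 CPM at d26 (log2 fold change 1.69, SE 0.549, adjusted p = 0.0154). Its d20 libraries were spread widely, again with replicates 3 and 4 above 1 and 2. *Cyp11a1*, which makes the earliest steroid of the pathway, rose by 1.22, and *Hsd17b3*, which makes testosterone, by 2.03.

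Transcripts that belong outside the testis were uneven. *Crisp1*, a secreted protein of the epididymis, was at 0, 0, 42.6 and 0.542 CPM at d20 and at 0.0689 and 109 CPM at d26, and the epididymis list, with 4 tested genes and a summed level of 0.44 to 51.2 CPM at d20 and of 0.34 and 130 CPM at d26, was thus high in single libraries of both ages. The part of such tissue in the results was not tested. No epididymis gene was called by edgeR or DESeq2, and 0 had an unadjusted p under 0.05. Of 8 red blood cell genes 3 were tested and 1, *Slc4a1*, the anion exchanger, fell (33.3%, beside 24.9% of all genes tested).

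ATAD2 has been studied for its effect on chaperones that deposit the histone variant H3.3. Of 23 genes for H3.3 and histone chaperones 4 rose (17.4%, beside 27.2% of all genes tested) and 5 fell (21.7%, beside 24.9%), with a median of -0.06 that turned to 0.03 under median-of-ratios scaling. Library totals gave 3 rises and 8 falls, DESeq2 7 and 4, and the fit without replicate 2 of d26 3 and 2. *Nasp*, a chaperone of free H3 and H4, was at 405, 345, 391 and 393 CPM at d20 and at 930 and 787 CPM at d26 (log2 fold change 1.16, SE 0.192, adjusted p = 5.41e-05). *Chaf1a*, of the chaperone CAF-1 that follows replication, rose by 1.22. *Hira*, which deposits H3.3 outside replication, was at 27.1 to 31.6 CPM at d20 and at 18.8 and 19 CPM at d26 (-0.62), *Atrx*, an X-linked remodeler that deposits H3.3 with DAXX, fell by 0.91, and *H3f3b*, the more abundant of the H3.3 genes, by 0.35 (adjusted p = 0.0363, and not called in 8 alternatives, DESeq2 and median-of-ratios scaling among them).

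The sex chromosomes are silenced in pachytene spermatocytes. Of 728 X-linked genes tested 141 rose (19.4%) and 346 fell (47.5%), with a median of -0.58, beside 27.5% and 23.9% and a median of -0.05 over 16380 autosomal genes. X-linked transcripts summed to 18751 to 21843 CPM at d20 and to 14257 and 14373 CPM at d26. *Usp9x*, a deubiquitinase and the most abundant X-linked gene, went from 595, 753, 572 and 530 CPM to 355 and 335 CPM (-0.83, SE 0.24, adjusted p = 0.00682). Its Y-linked relative *Usp9y* fell by 0.87, and of 11 Y-linked genes tested 6 fell and none rose. Without replicate 2 of d26 the falls numbered 223 of the X-linked and 0 of the Y-linked genes, and without replicate 1 they numbered 2 of the Y-linked. *Akap4*, also X-linked, was among the genes that rose. Noncoding classes leaned upward, with rises for 55.3% of 459 long intergenic RNAs (median 0.98) and 56.2% of 306 antisense RNAs (0.93), beside 25.5% of 15805 protein-coding genes (-0.11).

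**Figure D3:**
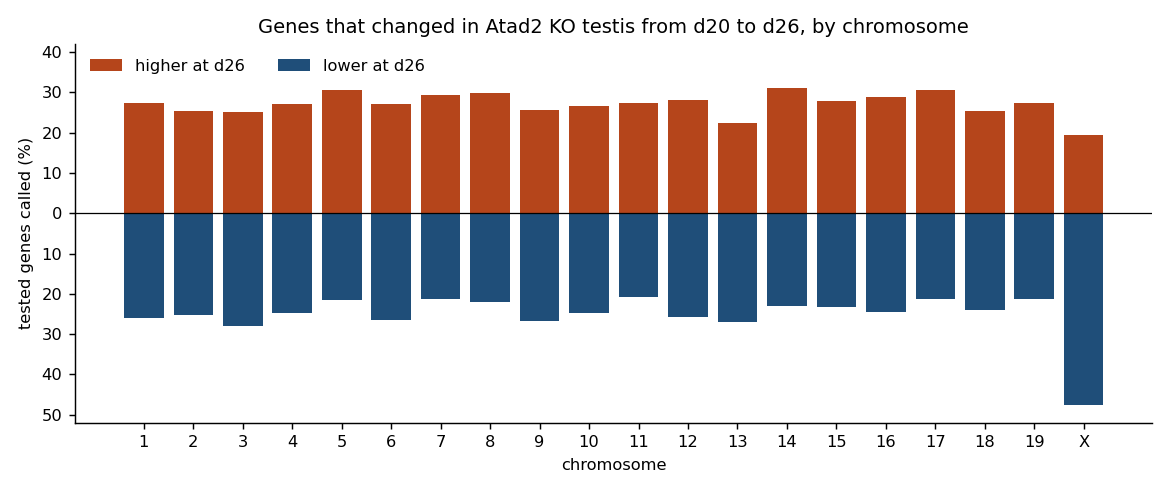
Percentage of tested genes (vertical axis) on each chromosome (horizontal axis) that rose (above 0) or fell (below 0) between d20 and d26 in KO testis. The autosomes have 22.5% to 31.1% of genes up and 20.9% to 27.9% down, and the X chromosome has 19.4% up and 47.5% down.

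The d22 and d24 libraries lay between the ends for most genes. With the change from d20 to d26 in group means of log2 CPM set to 100%, the 2813 genes that rose beyond 2-fold stood at a median of 39.3% at d22 and 65.7% at d24, and 88.6% of them kept the order of the ages. The 983 genes that fell beyond 2-fold stood at 45.0% at both ages, and 48.4% kept the order. The libraries of an age were not alike. For genes that rose beyond 2-fold the median level, relative to the mean of the 12 KO libraries, was -0.91, -1.10, -0.63 and -0.46 in replicates 1 to 4 of d20 and -0.40, 0.46, 0 and -0.26 in those of d22. Replicate 4 of d20 thus lay close to replicate 1 of d22, and replicate 2 of d22 lay close to the d24 libraries, at 0.53 and 0.51. The d26 libraries stood at 1.15 and 1.24, above those of d20 by the choice of genes.

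**Figure D4:**
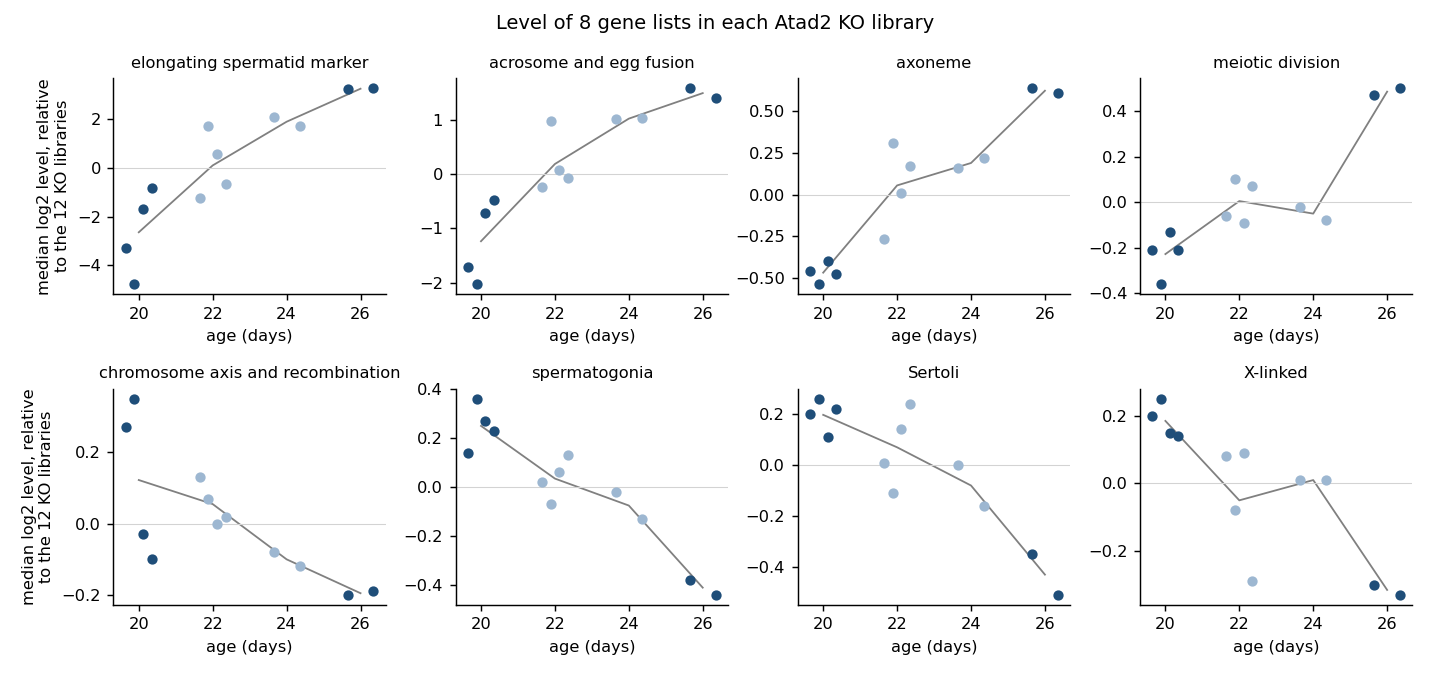
Median log2 level of 8 gene lists in each of the 12 KO libraries, relative to the mean of those libraries (vertical axis), by age in days (horizontal axis), with dark points for d20 and d26, light points for d22 and d24, and a line through the age means. Spermatid lists climb at every age, with the d20 libraries spread widest for the elongating spermatid markers. Axoneme and meiotic division genes are highest at d26, and the spermatogonial, Sertoli and X-linked lists are lowest there.

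Beside the KO change stands that of WT testis between the same ages, also 4 libraries against 2. In WT 7292 genes changed (42.5%). Of these 6077 changed in KO too, which is 83.3% of the WT genes and 67.9% of the KO genes, and 6075 of them had the same sign. The difference of the changes, tested for each gene as (KO d26 minus KO d20) minus (WT d26 minus WT d20), gave 0 calls (0.0%) with edgeR. At an unadjusted p under 0.05 stood 1857 genes (10.8%), of which 1400 (8.15%) had the smaller rise or larger fall in KO and 457 (2.66%) the reverse. DESeq2 called 216, of which 183 were lower in KO, and edgeR without replicate 2 of KO d20 called 326, of which 320 were lower in KO. Leaving out any other library gave 0 to 2. Without replicate 2 of WT d20, the library that stood apart, 7971 genes changed in WT and 0 were called for the difference, while 3059 had an unadjusted p under 0.05, of which 1739 were lower in KO and 1320 higher. Without replicate 2 of KO d26 that number was 1154.

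Several spermatid lists had the smaller median rise in KO. The median rise of the elongating spermatid markers was 5.25 in KO and 8.98 in WT, of the actin-like and calyx genes 4.0 and 8.16, of the acrosomal genes 2.86 and 4.55, and of the histone-to-protamine genes 4.49 and 5.21. When 1 library was left out, the KO medians of these lists ranged from 4.85 to 6.22, from 3.63 to 4.70, from 2.53 to 3.38 and from 4.14 to 4.69. For the axoneme the medians were 1.10 and 0.80, for the meiotic divisions 0.69 and 0.59, and for Sertoli cells -0.64 and -0.59. Single spermatid genes showed the levels behind these medians. *Akap4* was at 2.42 to 40.2 CPM in KO and at 0.462 to 2.59 CPM in WT at d20, and at 545 and 568 CPM in KO and 528 and 475 CPM in WT at d26. Only replicate 2 of KO d20 was within the WT range, and the difference of the changes was -3.82 (unadjusted p = 0.00479, adjusted p = 0.219). *Acrv1* had 2.48 to 30.4 CPM in KO and 0.316 to 2.09 CPM in WT at d20, without overlap, and 157 and 188 CPM in KO and 162 and 167 CPM in WT at d26 (difference -3.89, adjusted p = 0.175). *Prm1*, *Prm2*, *Tnp1* and *Tnp2* had differences of -2.41 to -3.37, none with an adjusted p under 0.67. Litter and exact stage at d20 are not given in the labels, and their part in the gap was not tested.

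The 6 genes with the lowest p for the difference all had an adjusted p of 0.12. *4930480E11Rik*, *4921534H16Rik*, *4930533N22Rik* and the olfactory receptor gene *Olfr701* rose in both genotypes, less in KO, by 2.33, 1.80, 2.09 and 2.11 beside 7.53, 6.57, 6.26 and 6.08. The WT libraries of d20 held only 1, 0, 1 and 9 counts of *4921534H16Rik*, so that the size of its WT rise is uncertain. Its counts in the KO libraries of d20 were 25, 20, 81 and 96. *Ptpro*, a receptor tyrosine phosphatase, was at 3.20 to 4.57 CPM at d20 and 2.20 and 2.93 CPM at d26 in KO, without a call, and at 3.96 to 6.29 CPM and then 14.6 and 15.8 CPM in WT. *Cisd2*, an iron-sulfur protein of the mitochondrial surface and endoplasmic reticulum, fell in KO from 24.4, 25.6, 22.9 and 22.1 CPM to 14.5 and 13.8 CPM (-0.75) and was at 15.2 to 20.2 CPM and then 21.7 and 20.3 CPM in WT (0.23, adjusted p = 0.179). Of the 16 Leydig genes 3 rose in KO and 10 in WT, where of all 17170 genes tested 4672 rose in KO and 4183 in WT. None of the Leydig genes was called for the difference, and 2 had an unadjusted p under 0.05, beside 10.8% of all genes tested. *Cyp11a1* rose by 1.22 in KO and 2.97 in WT (difference -1.76, adjusted p = 0.304).

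**Figure D5:**
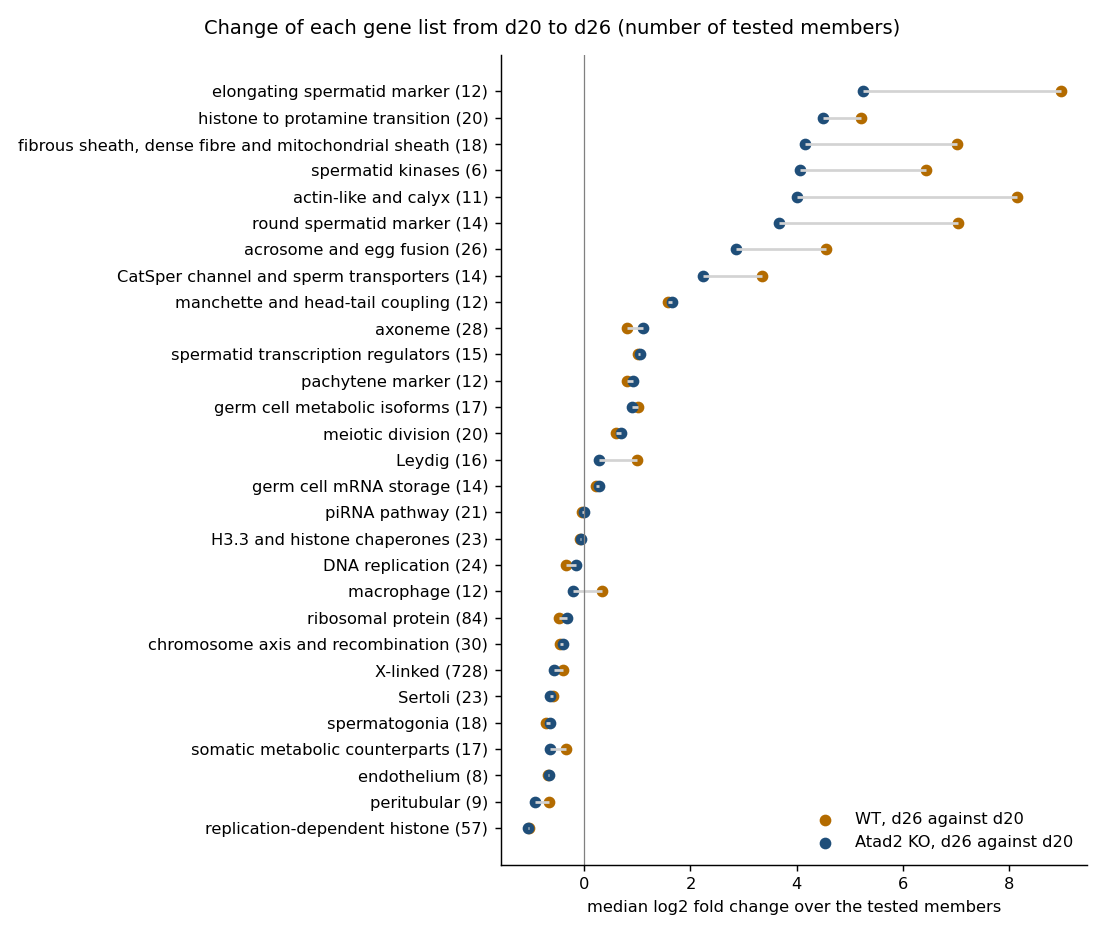
Median log2 fold change between d20 and d26 (horizontal axis) over the tested members of each gene list (vertical axis, number tested in parentheses) in KO (blue) and WT (orange) testis, with genes without counts at d20 set to a lower bound. The steepest spermatid lists lie right of 0 with the WT point further out, as for the elongating spermatid markers at 5.25 and 8.98, while for the axoneme the KO point, at 1.10, lies beyond the WT point at 0.80, and the points nearly coincide for meiotic and Sertoli lists.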

How the data were processed

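The authors used STAR 2.7.11b to align read pairs to the mouse genome (mm10), counted the pairs of each gene with HTSeq, by strand and without pairs of several alignments, and deposited raw counts per gene symbol in 1 table per library, neither normalized nor pooled. The version of the gene models is not given in the sources used here, and near-identical copies are under-counted. The 5 tallies of unassigned pairs entered neither library sizes nor tests, which left 35.6% to 46.3% of the pairs assigned in these 6 libraries. The study's methods give 3 samples at d20 and the labels 4, all of which were used.

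Counts of 24456 genes were scaled with TMM factors (trimmed mean of M values), and 17170 passed filterByExpr at a minimum count of 10. A robust quasi-likelihood fit with edgeR 4.0.16 (limma 3.58.1, R 4.3.3) had 1 coefficient for each of the 8 groups of all 24 libraries, since KO d26 has only 2. Tests were two-sided with Benjamini-Hochberg adjustment over all genes tested, and a gene was called changed at an adjusted p under 0.05. Fold changes are the fitted log2 values. Each SE was derived from the test, as the absolute log2 fold change over the square root of the F statistic. It is rough for genes with hardly any counts at d20. Genes with no count in a group were set against a floor of 3 counts in list medians. No replicates of a group agreed within sampling noise. No intervals are given, and counting error is covered by the model only.

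Gene lists are described by counts and medians. The members and lists were chosen with earlier results of these data known. Named genes were drawn from the 10 largest rises and falls with 20 CPM or more in the higher group and no overlap (symbols of the form Gm or Rik left out). They were also drawn from the most abundant, most risen and most fallen member of each list. The 6 lowest p for the difference between genotypes, *Atad2*, and further list members as examples were added. Not every list member picked in this way is named. Left out were, among others, *Papolb*, *Rrm1*, *Sycp2*, *Mael* and *Rimbp3*, each the most abundant of its list. *Trf* and *Sult1e1*, the largest Sertoli and Leydig rises (1.04 and 2.19), were left out too. So were *Hist2h2aa2* and *Hist1h2ae*, the largest replication-dependent histone rise and fall (1.36 and -1.85). Positions came from the GENCODE annotation of mm10 (23378 of the symbols directly, 697 by an older symbol, 253 through RefSeq, 128 not placed). Promoters were matched for 12573 of the 15363 tested protein-coding genes on the chromosomes of the promoter table (81.8%). The alternatives were other scalings and filters, other sets of libraries, a replicate block, DESeq2 1.42.0 and leaving out each library in turn.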

Additional observations from a re-analysis of the deposited data

Results flagged for a closer look

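Among 185 sets of 4 libraries examined for a library far from the others, 7 held one (3.8%), where chance gives about 5%. In replicate 4 of KO d20, *Hemgn* was at 0.135 CPM, *Fam71a* at 0.61 CPM and *Trim42* at 0.339 CPM, above the other 3 libraries of that age. Each of these levels rests on few counts. *Lppr4* was at 28.1 CPM in replicate 2 of KO d20, and at 21.3 to 22.1 CPM in the others. *Crisp1*, of the epididymis, was at 42.6 CPM in replicate 3 of KO d20. The epididymis list stood at 3.37 in replicate 1 of KO d22, as a median log2 level relative to the mean of the 12 KO libraries, and the endothelium list at -0.71 in replicate 4 of KO d22.

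*Ptpro* and *Cisd2* had log2 fold changes of opposite sign in KO and WT between d20 and d26. Those of *Ptpro* were -0.61 in KO (not called, adjusted p = 0.0874) and 1.6 in WT, and those of *Cisd2* were -0.75 in KO and 0.23 in WT (not called, adjusted p = 0.179). The difference itself was tested with edgeR and had an adjusted p of 0.12 for both.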

How the results depend on the processing

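The counts of changed genes and their directions were recomputed under 34 alternatives, 24 of which left out 1 library each. Leaving out 1 library gave 5829 to 10147 changed genes, 2268 to 5030 falls, and 0 to 326 genes with a difference between KO and WT. DESeq2 called 216 genes for that difference. Beyond 2-fold the count stayed between 3301 and 3917 when 1 library was left out. Median-of-ratios scaling gave 5142 rises and 3530 falls, DESeq2 5138 and 3652, no filter on low counts 4888 and 3905, and the 6 libraries alone 5049 and 4337. No gene called in an alternative had the opposite direction to its call in the reported fit. Of 108 genes named with a call, 86 kept it in every alternative and all kept their direction, while 5 of 11 named without a call gained one in some alternative. DESeq2 gave no adjusted p for 8 of the named genes. Of 32 lists 28 kept the sign of their median throughout, and the piRNA, H3.3 and chaperone, epididymis and Y-linked lists did not. Whether replicate numbers pair the samples could not be told, because the deviations of only 2 d26 libraries from their mean mirror each other. Same-numbered libraries had correlations of 0.11 and -0.117 between their deviations, which therefore cannot decide it. A fit with the replicate number as a block gave 4658 rises and 4474 falls. With 2 libraries at d26, small changes are the least certain, and 3 counts set the floor for genes absent at d20. The cause of these differences was not tested.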

Other observations

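Few ribosomal protein genes rose in KO testis between d20 and d26. Of 84 tested 2 rose (2.38%, beside 27.2% of all genes tested) and 18 fell (21.4%, beside 24.9%), with a median log2 fold change of -0.33. The number of falls was 40 under library totals, 32 with a replicate block, 11 and 10 without replicates 1 and 2 of d20, and 9 and 5 without replicates 1 and 2 of d26. The largest fall was that of the X-linked *Rps4x*, from 96.8, 109, 86.5 and 74.2 CPM to 38.2 and 40.6 CPM (-1.22). Of 12 transcripts encoded in mitochondria 0 were called by edgeR and 0 by DESeq2, with 1 at an unadjusted p under 0.05. *COX1*, for a subunit of cytochrome oxidase, was at 18800 to 27900 CPM at d20 and at 13900 and 16600 CPM at d26 (-0.60, adjusted p = 0.053), and it was called in some alternatives, such as scaling by library totals.

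The following 5 genes were picked after their values were seen. Other genes of the kinds they belong to were not counted, so their falls do not stand for a group. *Dlk1*, for a growth regulator made in immature somatic cells, was at 12.3, 22.6, 9.11 and 10.4 CPM at d20 and at 1.72 and 1.20 CPM at d26 (-3.22, SE 0.606, adjusted p = 0.000241). *Zim1* fell by 3.08, *H19*, a noncoding RNA, fell by 1.64, *Peg3* fell by 1.23, and *Igf2*, the growth factor, fell by 0.76. *Igf2* lost its call without either d26 library, and *Zim1* without replicate 2. In WT their log2 fold changes were -2.26 for *Dlk1*, -1.59 for *Zim1* (adjusted p = 0.053), -1.79 for *H19*, -1.14 for *Peg3* and -0.76 for *Igf2*.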
